A study of Mus musculus with 20 samples.

Results

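The genes described here are the insulin-like growth factor (IGF) system of the mouse cerebellum: the ligands Igf1 and Igf2, the receptors Igf1r and Igf2r, and the binding proteins Igfbp2 to Igfbp7. They were taken by symbol, 10 genes of the 29200 rows in the count table, and all 10 had enough reads to be tested. The set was selected on measured values: it was chosen by the genotype differences of Igfbp5 and Igfbp4, which had opposite directions in these same mice. Genotype differences of the 10 genes are therefore given as a description, without p-values, and only their age differences are tested.

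Bulk RNA-seq was performed on the whole-tissue cerebellum of 20 male C57BL6/N mice in 4 groups of 5. WT/WT mice carry unaltered Atxn3 on both alleles, although the labels name the wild-type protein ataxin-2. 304Q/304Q mice are homozygous for a knock-in of 304 interrupted glutamine codons in Atxn3, the gene mutated in spinocerebellar ataxia type 3, and descend from 1 zinc-finger nuclease founder line. Both genotypes were taken at 2 months, called pre-symptomatic in the study, and at 12 months, called symptomatic. The mice of a group were 5 separate animals, and no gene was deleted and no agent given in any group. The libraries held 11385380 to 27636687 counts assigned to genes, with group medians between 13226186 and 14234560. Atxn3 itself was measured at 16.9 to 23.4 CPM (library-size-scaled read counts) in 2-month-old WT/WT mice, 11.1 to 16.9 in 2-month-old 304Q/304Q mice, 14.2 to 16.5 in 12-month-old WT/WT mice and 12.7 to 15.5 in 12-month-old 304Q/304Q mice. Counts per gene do not show the repeat, so these levels do not check the genotype labels.

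IGF1 and IGF2 are secreted growth factors that act through the IGF1 receptor, a tyrosine kinase that signals through insulin receptor substrates to PI3K and AKT and through RAS to the MAP kinases. IGF2R, also the mannose 6-phosphate receptor, takes up IGF2 and sends it to lysosomes. Most IGF outside cells is held by the binding proteins, which limit or prolong its access to the receptor and release it when proteases such as PAPPA and HTRA1 cut them. IGFBP4 is known mainly as an inhibitor of IGF action, whereas IGFBP5 binds extracellular matrix and has been described both as an enhancer and as an inhibitor. In the developing cerebellum, IGF1 supports the growth and survival of Purkinje cells and granule cell precursors and promotes myelination.

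Igfbp5 and Igfbp2 are neighbours on chromosome 1 (GRCm38). Igfbp2 lies on the plus strand at chr1:72824503-72852474 and Igfbp5 on the minus strand at chr1:72857932-72874884, so that their 3′ ends face each other across 5457 bases that hold no annotated gene. Igfbp4 lies on chromosome 11, on the plus strand at chr11:99041244-99054392, far from Igfbp3 on the same chromosome (chr11:7206086-7213923, minus strand). The sequences just upstream of the starts of Igfbp5 and Igfbp4 are shown because these 2 genes carry the opposite genotype differences, and that of Igfbp2 because it is the neighbour of Igfbp5. The sequences are those of RefSeq for GRCm38.p6, written 5′ to 3′ on the gene's own strand and ending where the gene begins in RefSeq or GENCODE, whichever lies upstream. They cover chr1:72874885-72875115 (minus strand) for Igfbp5, chr11:99040994-99041243 (plus strand) for Igfbp4 and chr1:72824230-72824479 (plus strand) for Igfbp2. Capitals mark each match to TATAAA, a form of the TATA box, and to GGGCGG, the GC box, and no match to CCAAT was found in the 3 sequences.
Igfbp5: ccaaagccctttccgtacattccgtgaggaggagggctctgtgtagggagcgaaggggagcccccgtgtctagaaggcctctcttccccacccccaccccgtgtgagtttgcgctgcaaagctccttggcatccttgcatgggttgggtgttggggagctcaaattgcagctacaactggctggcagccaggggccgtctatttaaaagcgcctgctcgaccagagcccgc
Igfbp4: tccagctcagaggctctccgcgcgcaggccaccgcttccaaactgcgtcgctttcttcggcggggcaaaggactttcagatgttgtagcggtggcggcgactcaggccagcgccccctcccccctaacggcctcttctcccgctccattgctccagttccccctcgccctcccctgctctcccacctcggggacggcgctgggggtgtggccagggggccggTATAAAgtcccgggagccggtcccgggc
Igfbp2: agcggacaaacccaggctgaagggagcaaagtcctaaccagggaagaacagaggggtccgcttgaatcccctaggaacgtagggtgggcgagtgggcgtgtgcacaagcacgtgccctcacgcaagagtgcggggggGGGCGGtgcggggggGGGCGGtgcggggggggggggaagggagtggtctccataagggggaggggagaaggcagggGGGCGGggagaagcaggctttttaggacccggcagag
The Igfbp4 sequence held 1 TATAAA match, whose first base lies 28 bases before the end of the window. Igfbp2 held 3 GGGCGG matches on the strand shown, and Igfbp5 held no exact match to either motif. Only these exact letters were searched, so a TATA box of other letters would be missed. The letters tatttaaa near the end of the Igfbp5 sequence were not counted. Searched on both strands, TATAAA was in 12.4% and GGGCGG in 32.7% of the 250 bases before the start in all 32851 RefSeq windows, and CCAAT was in 33.8%. Of the further motifs, CANNTG, the E-box, had 1 match in each of the 3 sequences and is in 66.2% of windows, while GTAAACA, the forkhead motif (3.17% of windows), and AAAGGTCA, the NR4A motif (1.34%), had none. None of these motifs contains another, and the 3 sequences were 60.6%, 69.2% and 67.2% G or C for Igfbp5, Igfbp4 and Igfbp2, against a median of 52.4% over all windows. These matches are letters in the sequence and were not tested for binding.

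In total 6 libraries stood apart in RNA of the choroid plexus, the tissue in the ventricles that makes cerebrospinal fluid and lies against the cerebellum. The summed level of 15 choroid plexus markers was 130 to 199 CPM in 14 libraries and 675 to 2992 CPM in 304Q/304Q replicate 3 at 2 months, WT/WT replicates 1, 2 and 5 at 12 months and 304Q/304Q replicates 1 and 3 at 12 months. No WT/WT mouse of 2 months was among them, and the mean of Ttr, the transport protein that defines this tissue, was 3.66 CPM in that group and 670 CPM in WT/WT mice of 12 months. In WT/WT mice of 2 months the mean marker sum was 169 CPM, of which the marker Enpp2 gave 135 CPM. The low sums of that group therefore mainly show Enpp2. Results are given with all 20 libraries and, where it matters, without these 6. Markers of the cerebellum's own cells were present in every group, and none of the 14 marker lists had a gene at 0 in all libraries. In 304Q/304Q mice of 12 months, 14 of 19 tested Purkinje cell markers, 10 of 20 markers of myelinating oligodendrocytes, 7 of 16 of astrocytes and Bergmann glia and 4 of 5 blood markers were lower than in WT/WT, where 12.5% of all genes tested differed in either direction. In bulk tissue, fewer cells of a type and less RNA per cell cannot be told apart.

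**Figure D1:**
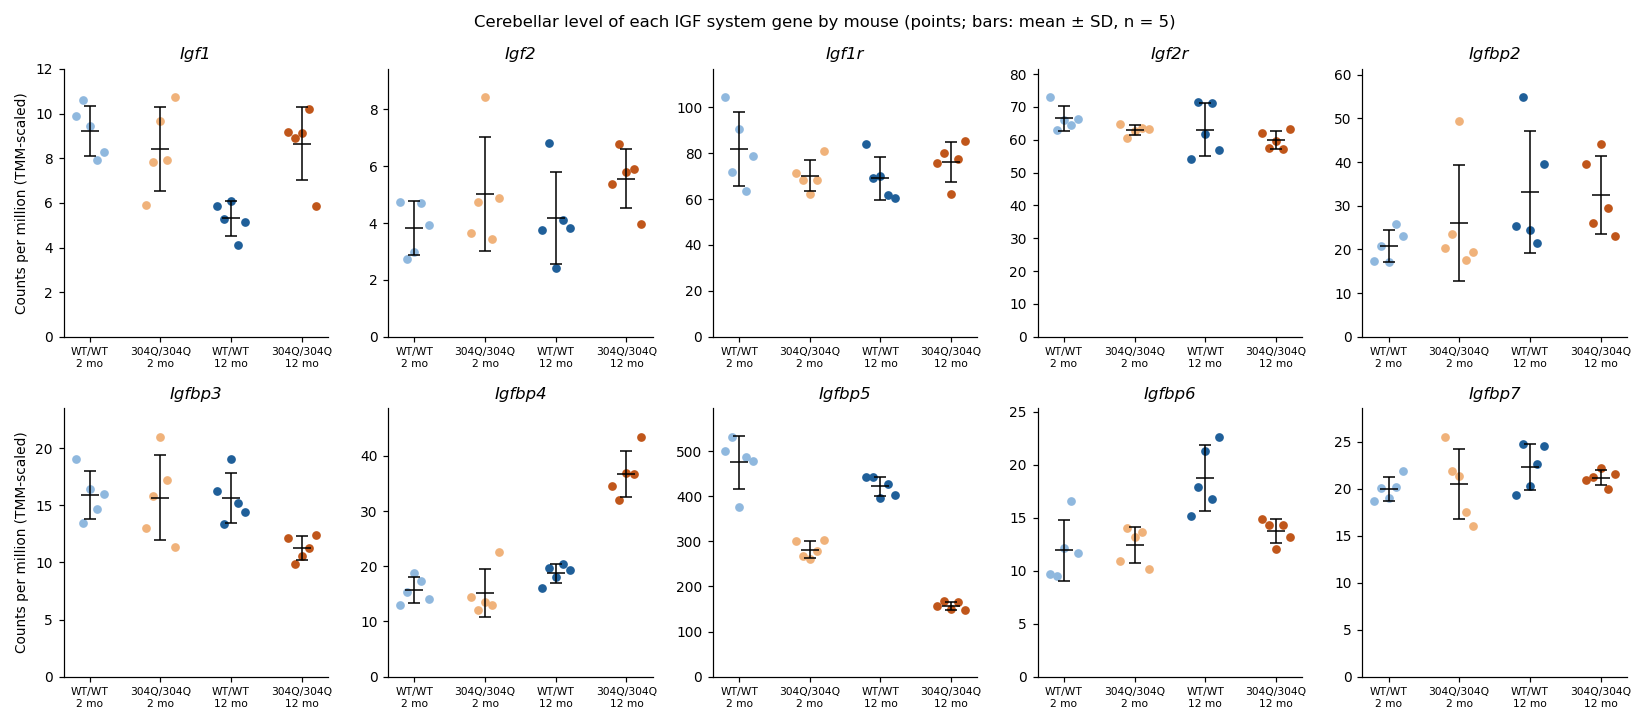
Level of each of the 10 genes in CPM, scaled by the trimmed mean of M values (TMM), on linear axes from 0, with 1 point for each mouse and bars for the mean and SD of 5 mice. Igfbp5 was lower in 304Q/304Q mice at both ages without overlap, Igfbp4 was higher in 304Q/304Q mice at 12 months, and Igfbp2 was at 49.3 and 54.8 CPM in single mice of 2 groups.

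Levels were compared between genes per kilobase of exon, since longer genes collect more reads. Igfbp5 was the highest of the 10 genes in every group, with 79.1 ± 9.77 CPM per kb (SD, n = 5) in WT/WT mice of 2 months and 26.2 ± 1.496 in 304Q/304Q mice of 12 months, and its range never met that of the next gene. Igfbp7 came second in the first 3 groups, at 16.5 to 18.5 CPM per kb, followed by Igfbp2 and Igfbp6. The ranges of these neighbours overlapped in most groups, so that Igfbp7, Igfbp2 and Igfbp6 in WT/WT mice of 12 months, at 18.5, 17.9 and 16.8 CPM per kb, had no separate order. Igf2r followed at 6.43 to 7.15 CPM per kb, and Igfbp3, Igf1r and Igfbp4 lay below it in the first 3 groups, where neighbours among these genes overlapped. In 304Q/304Q mice of 12 months Igfbp4 stood at 8.31 ± 0.958 CPM per kb, above Igf2r (6.43 ± 0.292) with no overlap, and so took the fifth place in place of the seventh or the eighth. The ligands were lowest in all groups, Igf1 at 0.536 to 0.932 and Igf2 at 0.668 to 0.972 CPM per kb, and their ranges overlapped in each group.

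**Figure D2:**
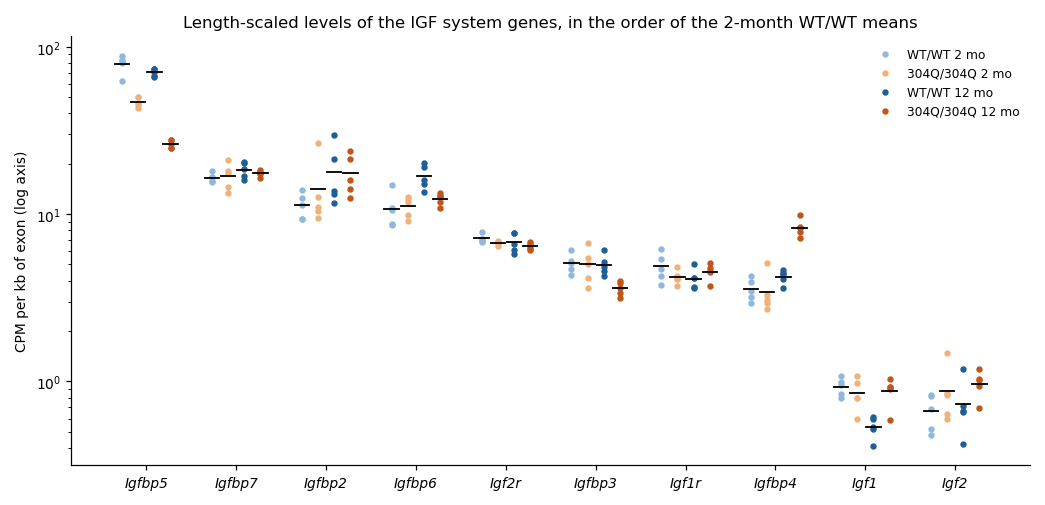
CPM per kilobase of merged exon on a log axis for the 10 genes, with 1 point per mouse and a line at the mean of each group, in the order of the 2-month WT/WT means. Igfbp5 is highest in all 4 groups, and in 304Q/304Q mice of 12 months its mean of 26.2 approaches the 17.6 of Igfbp2.

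Summed per kilobase over the 6 binding proteins, the family level was 126 ± 10.8 CPM per kb in WT/WT and 97.5 ± 7.34 in 304Q/304Q animals of 2 months, and 133 ± 10.3 and 85.6 ± 4.12 at 12 months. Igfbp5 made up 62.5% ± 3.81 of this sum in WT/WT mice of 2 months and 48.4% ± 5.69 in 304Q/304Q mice of that age. At 12 months its share was 53.2% ± 4.305 in WT/WT and 30.7% ± 2.43 in 304Q/304Q, with all 304Q/304Q mice (27.7% to 33.7%) below all WT/WT mice (48.6% to 58.5%). The other binding proteins together stood at 47.1 ± 4.61, 50.6 ± 9.36, 62.4 ± 10.03 and 59.4 ± 4.597 CPM per kb in the order 2-month WT/WT, 2-month 304Q/304Q, 12-month WT/WT and 12-month 304Q/304Q. At each age the means of these others differed between genotypes by less than 1 SD of the 304Q/304Q mice.

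Among the ligands, Igf1 fell with age in WT/WT cerebellum. Its level was 9.89, 10.6, 9.45, 7.93 and 8.28 CPM in the 5 WT/WT mice of 2 months and 5.88, 5.30, 6.09, 4.09 and 5.16 CPM in those of 12 months. All older WT/WT mice were below all younger ones, and the log2 fold change was -0.80 (SE 0.171, adjusted p = 0.00447, edgeR's quasi-likelihood test). The call held in all 30 alternative analyses, with adjusted p up to 0.0474 without the 6 choroid plexus libraries. In 304Q/304Q mice the levels were 5.89, 7.85, 9.67, 7.93 and 10.7 CPM at 2 months and 9.20, 8.88, 9.15, 10.2 and 5.86 CPM at 12 months. These groups overlapped throughout, with a log2 fold change of 0.05 (SE 0.165, adjusted p = 0.922, edgeR). At 12 months the mean of Igf1 was 1.63 times higher in 304Q/304Q mice than in WT/WT (log2 difference 0.71, SE 0.171), and 4 of 5 304Q/304Q mice were above all WT/WT mice, while replicate 5 lay within their range. At 2 months the log2 genotype difference was -0.14 (SE 0.164). The difference between the genotype effects of the 2 ages was 0.85 (SE 0.237) and was not among those past the threshold. In 4 of 29 alternatives, among them the test of DESeq2, this difference was past the threshold.

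Igf2, which in the adult brain is made mainly by choroid plexus and meninges, had few reads, with 32 counts in the lowest library. The level was 2.73 to 4.74 CPM in WT/WT and 3.43 to 8.42 CPM in 304Q/304Q mice of 2 months, and 2.41 to 6.83 and 3.96 to 6.78 CPM at 12 months. All groups overlapped, and neither age difference passed the test, at 0.14 (SE 0.263, adjusted p = 0.779, edgeR) in WT/WT and 0.16 (SE 0.251, adjusted p = 0.813, edgeR) in 304Q/304Q. The highest mice were 304Q/304Q replicate 3 at 2 months (8.42 CPM) and WT/WT replicate 2 at 12 months (6.83 CPM), the libraries with the highest choroid plexus sums, 2549 and 2992 CPM. The next mouse, 304Q/304Q replicate 2 at 12 months, had 6.78 CPM of Igf2 at a choroid plexus sum of 170 CPM. Without the 6 choroid plexus libraries the age difference in WT/WT turned to -0.23 (SE 0.299, adjusted p = 0.657, edgeR). Another annotated gene, Gm49394, shares 62.8% of the exon bases of Igf2 on the same strand and has no row of its own in the table, so reads of the 2 cannot be separated.

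The receptors varied little between the groups. Igf1r was measured at 81.7 ± 16.1 CPM (SD, n = 5) in WT/WT and 70.2 ± 6.87 CPM in 304Q/304Q mice of 2 months, and at 69.1 ± 9.35 and 76.0 ± 8.61 CPM at 12 months. Its estimate was lower with age in WT/WT, at -0.24 (SE 0.113, adjusted p = 0.168, edgeR), and higher in 304Q/304Q, at 0.11 (SE 0.112, adjusted p = 0.656, edgeR), and neither passed. Without WT/WT replicate 1 of 12 months, the highest of its group at 84.1 CPM, the WT/WT age difference was -0.32 and passed (adjusted p = 0.0440, edgeR). Igf2r, at 59.9 to 66.5 CPM in the group means, had standard errors near 0.07, as small as those of Igfbp5. Its age difference was -0.08 (SE 0.0701, adjusted p = 0.505, edgeR) in WT/WT and -0.07 (SE 0.0701, adjusted p = 0.654, edgeR) in 304Q/304Q, and its genotype differences were -0.08 (SE 0.0699) at 2 months and -0.08 (SE 0.0704) at 12 months. Airn, the antisense RNA transcribed across Igf2r that shares no exon with it, fell with age in WT/WT by 0.63 on the log2 scale (adjusted p = 0.00659, edgeR).

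Igfbp5 was the most abundant member and the one whose groups were best separated. Its level in WT/WT mice of 2 months was 501, 531, 376, 487 and 479 CPM, and in 304Q/304Q mice of that age 300.4, 268, 259.8, 278 and 302 CPM. At 12 months it was 442, 442, 396, 427 and 402 CPM in WT/WT and 157, 168, 149, 166 and 148 CPM in 304Q/304Q mice. Every 304Q/304Q mouse was below every WT/WT mouse of its age, and every 12-month 304Q/304Q mouse was below every younger one.

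The mean of Igfbp5 was 1.69 times lower in 304Q/304Q than in WT/WT at 2 months (log2 difference -0.75, SE 0.0705) and 2.68 times lower at 12 months (-1.42, SE 0.0719). These differences chose the gene and are given as a description. Of the 10 genes 1, Igfbp5, was past the threshold at 2 months, beside 0.0494% of the 12153 tested genes, and 1 was a differentially expressed gene (DEG) by the additional limit of 0.5 on the log2 scale, beside 0.00823%. The gene was chosen for this difference, so nothing is read from these counts. With age, Igfbp5 was 1.79 times lower in 304Q/304Q mice (log2 -0.84, SE 0.0712), which rests on the same 12-month mice. In WT/WT the age difference was -0.17 (SE 0.0701, adjusted p = 0.113, edgeR) and did not pass, although it passed without WT/WT replicate 3 of 2 months, the lowest of its group (-0.24, adjusted p = 0.0118, edgeR). The difference between the genotype effects of the 2 ages was -0.67 (SE 0.0997). Over all 30 alternatives the genotype difference stayed between -0.83 and -0.71 at 2 months and between -1.498 and -1.363 at 12 months. Summed markers of myelinating oligodendrocytes were also lower in 304Q/304Q mice, at 5556 to 6217 CPM against 6376 to 7229 CPM in WT/WT at 2 months and 3976 to 5393 against 5936 to 6719 CPM at 12 months. At 12 months sums were also lower without overlap for Purkinje cells (7262 to 7841 against 8713 to 9680 CPM) and astrocytes and Bergmann glia (5989 to 6380 against 7171 to 7259 CPM). The same held for inhibitory interneurons, cerebellar nuclei neurons, endothelial cells and blood. At 2 months the ranges of these other lists overlapped. The study listed Igfbp5 under astrocytes. The part of any cell type in the Igfbp5 difference was not tested.

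Igfbp4 differed in the other direction, in the older mice. Its level was 13.03, 15.3, 18.7, 17.3 and 14.1 CPM in WT/WT and 14.5, 12.0, 13.5, 13.1 and 22.6 CPM in 304Q/304Q mice of 2 months, where the groups overlapped (log2 difference -0.05, SE 0.141). At 12 months it was 15.99, 19.7, 17.98, 20.5 and 19.3 CPM in WT/WT and 34.5, 32.0, 36.95, 36.7 and 43.4 CPM in 304Q/304Q mice. The lowest 304Q/304Q mouse of 12 months was above every mouse of the other 3 groups, and the mean was 1.96 times higher than in WT/WT (log2 difference 0.97, SE 0.137). With age the level was 2.42 times higher in 304Q/304Q mice (log2 1.27, SE 0.137, a description as for Igfbp5) and differed by 0.26 (SE 0.141, adjusted p = 0.244, edgeR) in WT/WT. The difference between the genotype effects was 1.02 (SE 0.196). Without the 6 choroid plexus libraries it was 0.96 (SE 0.275). Of the 10 genes, Igfbp4 and Igfbp5 were past the threshold for this difference with all libraries, beside 1.95% of tested genes, and Igfbp5 alone without those 6, counts that the choice of the set shapes and from which nothing is read. Over the 30 alternatives the 12-month difference lay between 0.90 and 1.02, again as a description. Summed microglial markers were at 257 to 303 CPM in WT/WT and 264 to 337 CPM in 304Q/304Q mice of 12 months, overlapping between genotypes, and at 167 to 195 CPM in the younger mice. The study listed Igfbp4 under microglia. The part of these cells in the Igfbp4 difference was not tested.

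The opposite differences changed the proportion of the 2 transcripts. Igfbp5 reads were 31.1 ± 7.17 times as abundant as Igfbp4 reads in WT/WT and 19.4 ± 3.56 times in 304Q/304Q mice of 2 months. At 12 months the ratio of their CPM was 22.8 ± 2.82 in WT/WT and 4.35 ± 0.677 in 304Q/304Q, with 3.42 to 5.24 in the 304Q/304Q mice against 20.9 to 27.7 in the WT/WT mice.

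**Figure D3:**
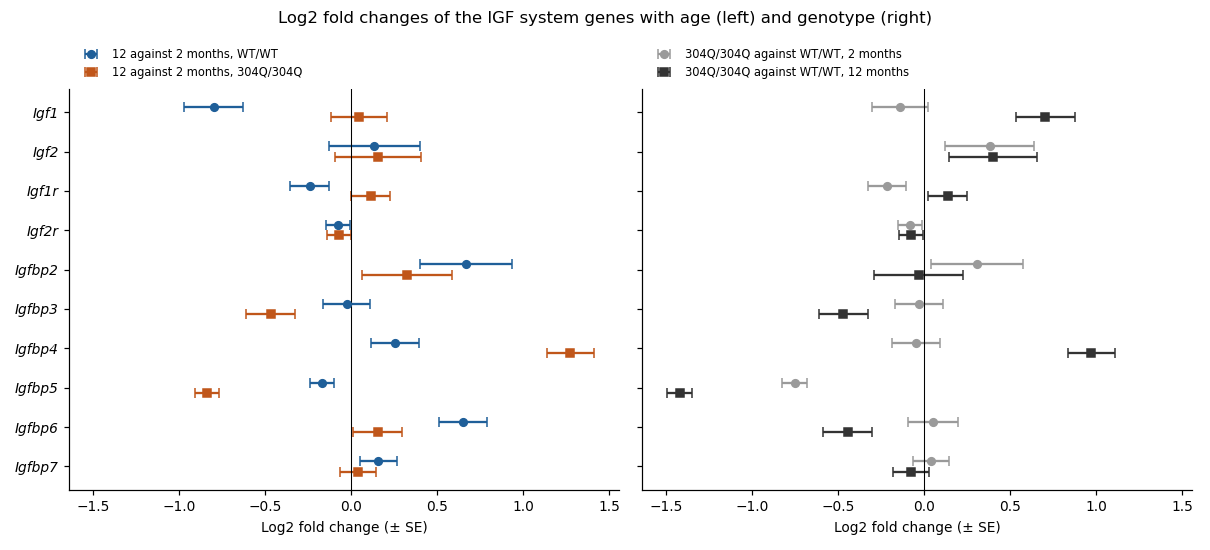
Log2 fold change with its standard error for the 10 genes, 12 against 2 months in each genotype (left) and 304Q/304Q against WT/WT at each age (right), from edgeR over 20 mice. Igfbp5 lies at -0.75 and -1.42 on the right, Igfbp4 at -0.05 and 0.97, and Igf1 at -0.80 with age in WT/WT against 0.05 in 304Q/304Q.

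Igfbp6, a binding protein with a preference for IGF2, rose with age in WT/WT cerebellum. Its level was 9.65, 9.51, 12.1, 16.5 and 11.7 CPM at 2 months and 15.1, 17.9, 21.3, 16.7 and 22.6 CPM at 12 months. A single younger mouse, replicate 4 at 16.5 CPM, reached into the range of the older ones. The log2 fold change was 0.65 (SE 0.142, adjusted p = 0.0050, edgeR), and it passed in all 30 alternatives (adjusted p up to 0.0366). In 304Q/304Q mice the level was 10.2 to 14.0 CPM at 2 months and 12.1 to 14.8 CPM at 12 months, a log2 fold change of 0.15 (SE 0.142, adjusted p = 0.630, edgeR). At 12 months all 304Q/304Q mice were below all WT/WT mice (log2 difference -0.44, SE 0.141), by a narrow gap between 14.8 and 15.1 CPM. This difference was past the threshold with all libraries but in 10 of 30 alternatives was not. Between the 2 ages the genotype effects differed by -0.50 (SE 0.201), which was not past the threshold.

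Igfbp3, the main carrier of circulating IGF, was lower in the older 304Q/304Q mice. Its level was 19.1, 13.5, 16.4, 14.7 and 15.96 CPM in WT/WT and 13.05, 15.8, 20.9, 17.2 and 11.3 CPM in 304Q/304Q mice of 2 months. At 12 months it was 16.2, 13.3, 19.03, 15.2 and 14.4 CPM in WT/WT and 12.1, 9.90, 10.6, 11.3 and 12.4 CPM in 304Q/304Q mice, with no overlap between the genotypes (log2 difference -0.47, SE 0.142). With age it fell in 304Q/304Q by 0.47 on the log2 scale (SE 0.141, adjusted p = 0.0428, edgeR), but 1 of the younger mice lay within the range of the older ones. That call was lost in 11 of 30 alternatives, with adjusted p up to 0.321, and the 12-month genotype call in 7 of 30. In WT/WT the age difference was -0.03 (SE 0.139, adjusted p = 0.928, edgeR), and it turned sign in 4 alternatives. Between the 2 ages the genotype effects differed by -0.44 (SE 0.198), which was not past the threshold. Summed endothelial markers were 433 to 467 CPM in 304Q/304Q and 491 to 504 CPM in WT/WT mice of 12 months, and summed blood markers 96.8 to 113 and 117 to 249 CPM. Of the 15 endothelial markers 3 were lower past the threshold and 0 higher. The mean of Slc2a1 alone was 135 CPM in WT/WT and 107 CPM in 304Q/304Q. Kdr (log2 difference 0.21) and Tie1 (0.18) had higher estimates that did not pass. The part of endothelial cells and blood in the Igfbp3 and Igfbp6 differences was not tested.

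Igfbp2, a binding protein expressed in choroid plexus and glia, spread widely within 3 of the 4 groups, with a coefficient of variation of 50.7% in 304Q/304Q mice of 2 months and 42.3% and 27.7% in WT/WT and 304Q/304Q mice of 12 months, against 17.6% in WT/WT mice of 2 months. Its level was 17.4, 20.9, 17.2, 25.7 and 23.0 CPM in WT/WT and 20.4, 23.5, 49.3, 17.6 and 19.4 CPM in 304Q/304Q mice of 2 months. At 12 months it was 25.3, 54.8, 24.4, 21.5 and 39.5 CPM in WT/WT and 39.5, 26.1, 44.2, 29.5 and 23.1 CPM in 304Q/304Q mice. The 5 mice above 30 CPM were all among the 6 with high choroid plexus markers, in which Igfbp2 lay between 25.3 and 54.8 CPM, against 17.2 to 29.5 CPM in the 14 others. The age difference in WT/WT was 0.67 (SE 0.266, adjusted p = 0.103, edgeR) with all mice and 0.14 (SE 0.157, adjusted p = 0.608, edgeR) without those 6. In 304Q/304Q it was 0.33 (SE 0.262, adjusted p = 0.566, edgeR) and 0.37 (SE 0.142, adjusted p = 0.194, edgeR). The genotype difference was 0.31 (SE 0.267) at 2 months and -0.03 (SE 0.261) at 12 months with all mice, and -0.05 (SE 0.126) and 0.19 (SE 0.171) without the 6. The age difference in WT/WT passed when 304Q/304Q replicate 3 of 2 months alone was left out (0.67, adjusted p = 0.0475, edgeR), and that in 304Q/304Q passed with surrogate variables in edgeR (0.40, adjusted p = 0.0467). Igfbp5, for comparison, was 149 to 442 CPM in the 6 and 148 to 531 CPM in the 14 mice. The part of choroid plexus RNA in the Igfbp2 differences was not tested beyond these values.

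**Figure D4:**
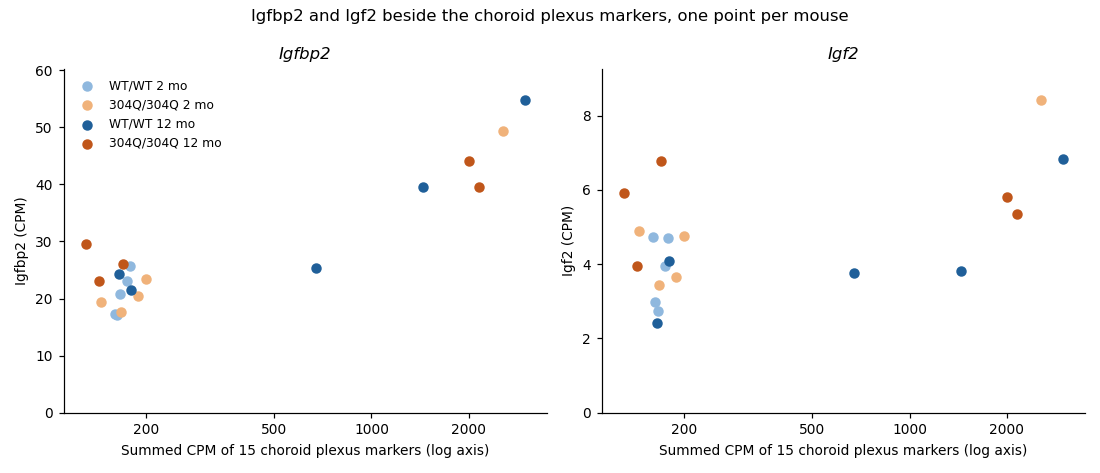
Igfbp2 (left) and Igf2 (right) in CPM against the summed CPM of 15 choroid plexus markers on a log axis, with 1 point per mouse coloured by group. The 5 mice with Igfbp2 above 30 CPM lie at marker sums from 1442 to 2992 CPM, and Igf2 is highest (8.42 and 6.83 CPM) in the 2 mice with the highest sums, with another mouse at 6.78 CPM and a low sum.

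Igfbp7, an IGFBP-related protein of blood vessels that binds IGF weakly, varied little between the groups. It was measured at 19.97 ± 1.24 and 20.5 ± 3.73 CPM in WT/WT and 304Q/304Q mice of 2 months and 22.3 ± 2.44 and 21.2 ± 0.830 CPM at 12 months. The age differences were 0.16 (SE 0.106, adjusted p = 0.334, edgeR) in WT/WT and 0.04 (SE 0.105, adjusted p = 0.882, edgeR) in 304Q/304Q, and the genotype differences 0.04 (SE 0.105) and -0.08 (SE 0.105). Polr2b, on the opposite strand, shares 7.03% of its exon bases, and the strand setting of the counting is not given in the sources used here.

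Counted over the set, 2 of 10 genes passed with age in WT/WT, against 11.5% of all tested genes, and 3 of 10 with age in 304Q/304Q, beside 7.26%. Of those 3, Igfbp4 and Igfbp5 share the 12-month mice that chose them, so nothing is read from that count. At 12 months 5 of 10 passed between genotypes, 2 higher (Igfbp4 and Igf1) and 3 lower (Igfbp5, Igfbp3 and Igfbp6), beside 12.5% of all tested genes (5.23% higher and 7.3% lower), a count that the choice of the set shapes. The median size of the log2 difference at 12 months was 0.42 over the 10 genes and 0.12 over all tested genes, and with age it was 0.20 and 0.13 in WT/WT and 0.15 and 0.10 in 304Q/304Q. The choice of the set shapes the 12-month median too. The 12-month count fell to 3 without WT/WT replicate 3, or without 304Q/304Q replicate 2, 3 or 4, and to 2 without the 6 choroid plexus libraries, where Igfbp5 and Igfbp4 were left. Calls over all tested genes fell from 1523 to 1040, 1160, 1228, 1068 and 644 in these fits, in the same order. Groups did not overlap at 12 months for 4 of the 10 genes, beside 8.94% of all tested genes, and for 1 at 2 months, beside 1.05%. These genotype counts include Igfbp5 at both ages and Igfbp4 at 12 months, which chose the set, so nothing is read from them. With age 1 of 10 in WT/WT and 2 of 10 in 304Q/304Q did not overlap, beside 6.57% and 7.8%. The latter 2 are Igfbp4 and Igfbp5, and nothing is read from their count.

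Across mice of the same group the members varied without a relation that passed the test. Over the 45 pairs, with group means subtracted (n = 20 mice), 5 Pearson correlations had an unadjusted permutation p under 0.05, and none passed after adjustment by Pearson's r or Spearman's rho. The largest Pearson correlation was between Igf2 and Igfbp2 (r = 0.687, permutation p = 0.00711, adjusted p = 0.272, and rho = 0.541, permutation p = 0.0235, adjusted p = 0.212). The largest Spearman correlation was between Igfbp3 and Igfbp5 (rho = -0.647, permutation p = 0.00741, adjusted p = 0.210, and r = -0.483). For Igf2 and Igfbp2, Pearson's r was 0.373 without the 2 mice farthest from the median of Igf2. The mice fall into 6 with high and 14 with low choroid plexus markers, and their ranges of Igfbp2, 25.3 to 54.8 and 17.2 to 29.5 CPM, overlap.

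The genes whose levels followed Igfbp5 most closely over the 20 mice were Nab2, a corepressor of EGR factors (r = 0.968), Clstn2, a synaptic calsyntenin (0.945), Sema7a, a membrane-anchored semaphorin (0.945), Mobp, a myelin protein (0.943), and the unnamed transcript Gm39465 (0.942). These values compare 4 groups that differ, and with group means subtracted r was 0.243, 0.357, 0.330, 0.0774 and 0.286. For Igfbp4 they were Pik3cd, a catalytic PI3K subunit (0.907, within groups 0.579), Hjurp, a centromere histone chaperone (0.905, 0.536), the transcription factor Nfix (0.896, 0.450), Isoc1 (0.881, 0.521) and Lyz2, lysozyme of myeloid cells (0.875, 0.298). All values were scaled together, and depth differed between the libraries, so these are descriptions without a test.

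The remaining pathway was examined through 129 genes listed by role, of which 100 were tested. With age in WT/WT, 20 of the 100 passed, 8 higher and 12 lower, against 11.5% of all tested genes. Among the genes that passed, the largest differences were in Pappa, the metalloprotease that cuts IGFBP4 and IGFBP5, which fell by 0.91 (SE 0.284, adjusted p = 0.0383), Tnc, the matrix glycoprotein tenascin C, which fell by 0.84 (SE 0.127, adjusted p = 0.000158), and Shc3, a neuronal adaptor of receptor kinases, which fell by 0.73 (SE 0.178, adjusted p = 0.0111). Airn followed, and Cst3, the protease inhibitor cystatin C, rose by 0.49 (SE 0.103, adjusted p = 0.00364). By role, 4 of 11 proteases and inhibitors, 4 of 18 receptor adaptors, 5 of 14 RAS and MAPK genes, 3 of 10 extracellular partners and 3 of 27 PI3K, AKT and mTOR genes passed. The median log2 fold change of the 100 genes was -0.02. The count was 10 without WT/WT replicate 3 of 12 months, 13 without WT/WT replicate 1 or 2 of 2 months, 32 without WT/WT replicate 1 of 12 months and 18 without the 6 choroid plexus libraries. Calls over all tested genes were 1398 with all libraries and 717 without WT/WT replicate 3 of 12 months. They were 764 and 842 without replicates 1 and 2 of 2 months and 2540 without replicate 1 of 12 months.

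In 304Q/304Q mice 6 of the 100 genes passed with age, 4 higher and 2 lower, against 7.26% of all tested genes. Cdkn1a, the cell cycle inhibitor p21, fell by 0.64 (SE 0.157, adjusted p = 0.0117), and Htra1, a secreted protease that cuts IGFBP5, fell by 0.30 (SE 0.0681, adjusted p = 0.00699). Kazald1, a protein with an IGF-binding domain, rose by 0.50 (SE 0.148, adjusted p = 0.0382), Grb10, an adaptor that restrains IGF1 and insulin receptors, by 0.36 (SE 0.0930, adjusted p = 0.0154), and Timp2, an inhibitor of metalloproteases, by 0.32 (SE 0.0761, adjusted p = 0.00943). The count was 3 without 304Q/304Q replicate 1 of 2 months and 1 without the 6 choroid plexus libraries. Calls over all tested genes were 668 and 438 in these fits, against 882 with all libraries.

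Between genotypes 0 of the 100 genes passed at 2 months by edgeR, where 0.0494% of all genes did, and 0 by DESeq2, which called 22 genes over all. In edgeR 10 of the 100 had an unadjusted p under 0.05. The share of all genes under that limit was not computed, so nothing is read from this count. At 12 months 14 passed, 5 higher and 9 lower in 304Q/304Q, against 12.5% of all tested genes. Cdkn1a was lower by -0.88 (SE 0.157, adjusted p = 0.00042), Ccn2, a matrix protein with an IGF-binding domain, by -0.81 (SE 0.224, adjusted p = 0.0184) and Htra3, a protease related to Htra1, by -0.64 (SE 0.151, adjusted p = 0.00563). Tnc was higher by 0.67 (SE 0.128, adjusted p = 0.000915). Of the intracellular branches, 1 of 18 receptor adaptors, 2 of 27 PI3K, AKT and mTOR genes, 3 of 14 RAS and MAPK genes, all higher, and 2 of 8 transcription factors and AKT substrates, both lower, passed. The count was 9 without 304Q/304Q replicate 3 of 12 months and 4 without the 6 choroid plexus libraries. Calls over all tested genes were 1228 and 644 in these fits, against 1523 with all libraries.

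Htra1 was the only one of the 100 genes past the threshold for a difference between the genotype effects of the 2 ages. Its level was 122 ± 10.04 CPM in WT/WT and 124 ± 11.7 CPM in 304Q/304Q mice of 2 months, 148 ± 11.4 CPM in WT/WT and 101 ± 3.75 CPM in 304Q/304Q mice of 12 months. At 12 months the highest 304Q/304Q mouse (105 CPM) was below the lowest WT/WT mouse (133 CPM). The genotype difference was 0.03 (SE 0.0679, adjusted p = 0.975) at 2 months and -0.54 (SE 0.0681, adjusted p = 6.02e-06) at 12 months, and the difference of the effects was -0.57 (SE 0.0962, adjusted p = 0.00177, edgeR). It rose with age in WT/WT, by 0.28 (adjusted p = 0.0107, edgeR), and fell in 304Q/304Q. Summed markers of astrocytes and Bergmann glia were 5989 to 6380 CPM in 304Q/304Q and 7171 to 7259 CPM in WT/WT mice of 12 months. Of the 16 markers 7 were lower past the threshold and 0 higher. The mean of Aldoc alone was 2413 CPM in WT/WT and 1708 CPM in 304Q/304Q. Gfap (log2 difference 0.19) and Aqp4 (0.15) had higher estimates that did not pass. The part of these cells in the Htra1 difference was not tested.

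**Figure D5:**
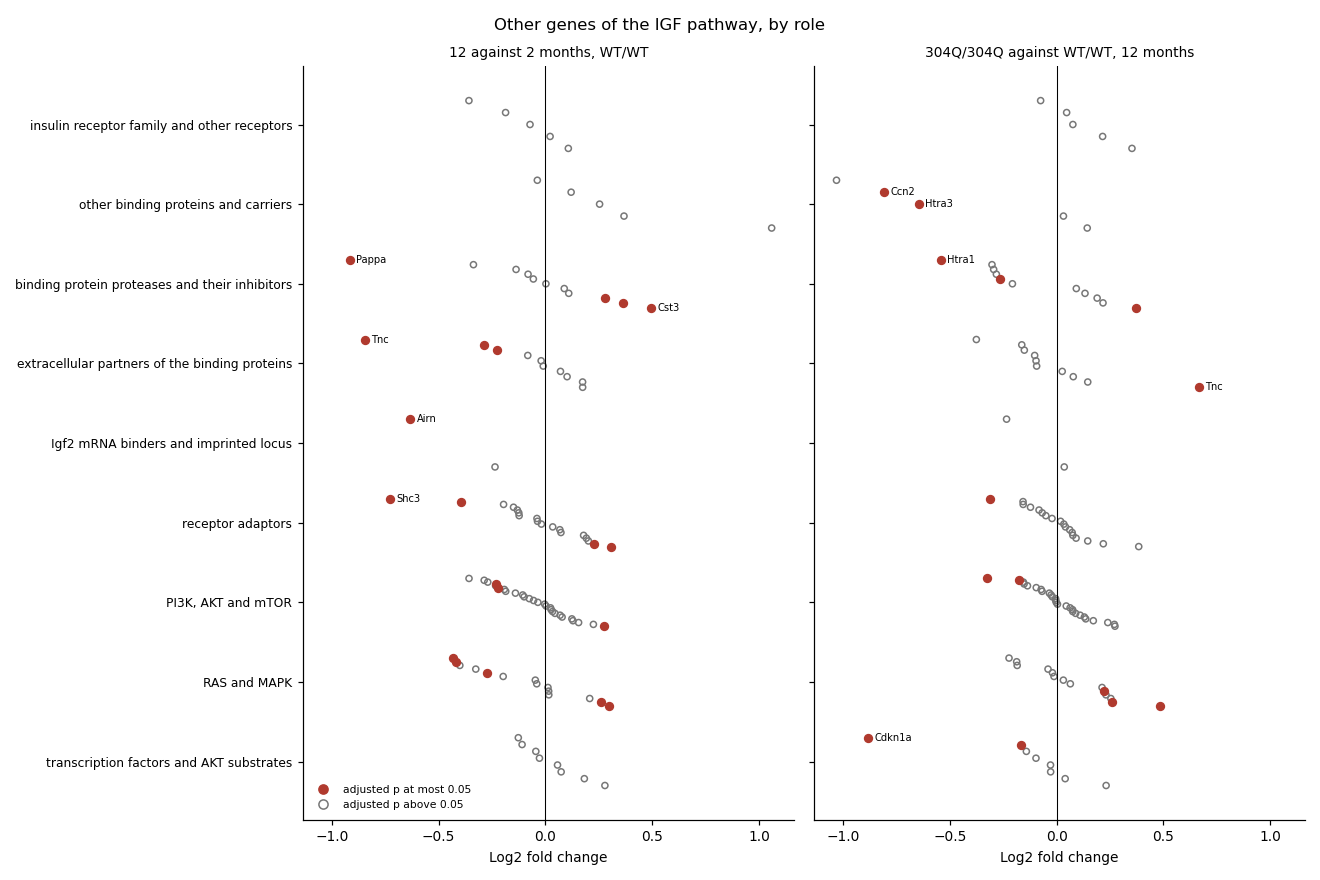
Log2 fold change of the 100 tested pathway genes by role, with age in WT/WT (left, 20 passed) and between genotypes at 12 months (right, 14 passed), from edgeR. Filled points have an adjusted p of at most 0.05 and open points do not, and the 5 largest filled points of each panel are named, among them Tnc at -0.84 on the left and 0.67 on the right.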

How the data were processed

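Cerebella of 20 mice were profiled from polyA-enriched RNA with a stranded kit. The authors aligned reads with STAR to GRCm38 (its version differs between the methods and the processing notes) and deposited raw read counts per Ensembl gene, made with Rsubread. All 29200 rows were used, of which 29150 were found in GENCODE M21. The 10 members and the gene lists were chosen with earlier results of these data known. The 12153 genes averaging 50 or more counts per library (99.3% of counts) were fitted with edgeR 4.0.16 in R 4.3.3 (TMM scaling, quasi-likelihood test, 4 groups in 1 model, no covariate), with Benjamini-Hochberg adjustment over all of them. A gene passed at adjusted p of at most 0.05 and was a DEG when its log2 fold change also reached 0.5 in size. SE is the log2 fold change divided by the square root of F. Levels are TMM-scaled CPM, and log2 CPM used a prior count of 2. Pairs of members were tested with 100000 permutations within groups (SciPy 1.17.1). Tested on simulated data for the 12-month genotype comparison (12153 genes), edgeR called 194 of 200 changed genes and 10 others, and DESeq2 197 and 16. The planted changes were 0.75 or larger on the log2 scale. Of the 99 of size 0.75, edgeR called 93 and DESeq2 96. Smaller differences, such as those of Igfbp3 and Igfbp6 at 12 months, were not simulated.

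Genes named besides the members were the pathway genes that passed, at most the 5 with the largest log2 fold change per comparison, the 5 genes with the highest Pearson r to Igfbp5 or Igfbp4, defining genes of marker lists that moved with a member, and Atxn3. Htra1 is also described by level because it passed the test of the difference between the genotype effects. Replicates of a group differed by more than counting noise (the chi-square divided by its degrees of freedom was 4.43 or more). p-values measure the spread between mice of 1 line. The common biological coefficient of variation was 0.113. Alternatives were DESeq2 1.42.0, surrogate variables from sva 3.50.0, DESeq2 size factors, other filters, a fit of the compared groups only, a replicate block and each library left out. A further alternative, leaving out the 6 libraries whose choroid plexus markers summed to over 500 CPM, was chosen after the data were seen.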

Additional observations from a re-analysis of the deposited data

Results flagged for a closer look

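Igfbp2 in 304Q/304Q replicate 3 of 2 months stood at 49.3 CPM, against 17.6 to 23.5 CPM in the other mice of its group, a gap larger than Dixon's 95% limit for 5 values. This library also had a choroid plexus marker sum of 2549 CPM. Igfbp4 in 304Q/304Q replicate 5 of 2 months stood at 22.6 CPM, against 12.0 to 14.5 CPM in the others. In all 40 groups of 5 values were examined, and chance alone gives such a gap in about 1 of 20 groups. For 3 genes the genotype effect differed between the ages: 1.02 on the log2 scale for Igfbp4, -0.67 for Igfbp5 and -0.57 for Htra1. The first 2 were chosen for their genotype differences, so that their values are a description, and the difference for Htra1 passed the test across all genes.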

How the results depend on the processing

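Over the 30 alternatives, the age calls of Igf1 and Igfbp6 in WT/WT kept their direction and their side of the threshold. With surrogate variables (3 in the fit of all mice) the pathway count with age in 304Q/304Q was 13 by DESeq2 and 12 by edgeR, against 6, and the count of members at 12 months was 2 by edgeR, against 5. Calls over all tested genes with age in 304Q/304Q were 1659 and 1510, against 882. At 12 months they were 1214 by edgeR, against 1523. With only the compared groups in the fit, the pathway count with age in WT/WT was 11, against 20, and calls over all tested genes were 739, against 1398. Without the choroid plexus libraries 1 pathway gene passed with age in 304Q/304Q, 4 passed at 12 months, 2 members passed at 12 months and 1 member, Igfbp5, passed the difference between the ages. Calls over all tested genes in these 3 comparisons were 438, 644 and 87, against 882, 1523 and 237 with all libraries. The fit without those libraries left 2 WT/WT mice and 3 304Q/304Q mice of 12 months. Leaving out 1 library gave pathway counts of 10 to 32 with age in WT/WT, down to 3 with age in 304Q/304Q and down to 9 at 12 months, and a member count down to 3 at 12 months. Calls over all tested genes were 717 and 2540 in the fits with pathway counts of 10 and 32. They were 668 in the fit with a pathway count of 3 and 1228 in that with 9. No age difference that passed turned direction. The genotype difference of Igfbp2 at 12 months, -0.03, was 0.498 by DESeq2 and 0.471 by edgeR with surrogate variables. Age differences that turned in WT/WT were those of Igf2 (-0.134 by DESeq2 and -0.124 by edgeR with surrogate variables, -0.230 without the choroid plexus libraries), Igfbp2 (-0.0339 and -0.0292 with surrogate variables), Igfbp7 (-0.0200 and -0.0165 likewise) and Igfbp3 (0.103 without the choroid plexus libraries). With 1 mouse left out, the ranges in WT/WT were -0.117 to 0.281 for Igf2 and -0.107 to 0.0461 for Igfbp3, and in 304Q/304Q -0.0674 to 0.159 for Igf1 and -0.0329 to 0.142 for Igfbp7. The cause of these changes was not tested. Replicate numbers are in the labels and were not used to pair the mice in the main fit. Of 30 pairs with the same number, 6 had correlated deviations above 0.1 (range -0.323 to 0.551). Pairs with different numbers were not compared, so these values cannot show whether the numbers pair the mice. A replicate block gave 2 members with age in WT/WT, 3 with age in 304Q/304Q, 1 at 2 months, 4 at 12 months and 2 for the difference between the ages. The calls over all genes are not set beside these member counts, and nothing is read from them. Requiring at least 50 counts in every library left Igf2 untested. Depth limited the ligands most, since the lowest library had 32 counts of Igf2 and 58 of Igf1.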
